A study of Mus musculus with 2 samples.

Results

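Among αSMA-labeled cells sorted from mouse periosteum, 174 of 503 kept cells met a rule for tendon-like, fibrous cells. A cell was a member when Thbs4, Fmod and Tnmd together gave 3 or more unique molecular identifiers (UMIs, each of which stands for 1 captured mRNA molecule) and Rgs5, a pericyte gene, gave none. A well was kept as a cell when at least 200 genes were seen, which held for 503 of the 600 wells assigned to a time point. The members comprised 67 of 181 kept cells at 2 days, 64 of 189 at 6 weeks and 43 of 133 at 13 weeks after tamoxifen.

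In these mice a tamoxifen-activated Cre recombinase under the αSMA promoter switches on the red Tomato reporter, so that Tomato+ cells are cells that used this promoter at the time of tamoxifen, and their descendants. All mice were female, carried αSMACreER and the Ai9 reporter, and received 2 doses of tamoxifen at 75 mg/kg. The 2-day pool was aSMACreER/Ai9/Col2.3GFP mice aged 10.3 weeks, and the 6-week pool was mice of the same genotype aged 14.4 weeks after 43 days of chase. The 13-week pool was aSMACreER/Ai9/R26-M2rtTA/TetOP-H2B-GFP mice aged 20.1 weeks after 96 days of chase, which had also received doxycycline for 5 weeks starting on postnatal day 11. Each time point was 1 pool of 2 to 3 mice, with Tomato+ cells of the tibia and femur periosteum sorted without antibody staining. The 2-day and 13-week cells shared a plate and the 6-week cells were on another, so time cannot be told apart from strain, doxycycline and age at 13 weeks, or from plate and age at 6 weeks. All 216 barcodes of the assigned wells of the 6-week plate recur on the other plate, because a barcode marks a well position.

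The members held 160950 UMIs, with a median of 845, 664.5 and 787 UMIs per cell at 2 days, 6 weeks and 13 weeks, and a range of 270 to 3251. The other kept cells had medians of 750, 672 and 641. Each UMI had been read 4.82, 7.87 and 5.84 times in the members. Most genes of a cell were seen through few molecules, and a missing UMI does not show that a gene was off. Levels below are UMIs per 10000 over the summed cells of a pool, and their Poisson intervals at 95% cover counting error only. The levels are not corrected for gene length and are therefore compared between cells, never between genes. Gm26924, a gene that overlaps ribosomal RNA sequence, gave 615, 407 and 1087 per 10000 in the members and 645, 424 and 787 in the other cells, and its part in the differences between pools was not tested.

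The periosteum has an inner layer of osteogenic cells and an outer fibrous layer, which is continuous with tendons and ligaments where these insert into bone. Tendon fibroblasts are specified by the transcription factors Scx and Mkx, secrete fibrillar collagen, and coat the fibrils with small leucine-rich proteoglycans that set fibril width and spacing. Tenomodulin (Tnmd) is a membrane glycoprotein of mature tendon fibroblasts, fibromodulin (Fmod) a proteoglycan of the collagen fibril, and thrombospondin-4 (Thbs4) a matrix protein abundant in tendon.

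The rule genes described the members by construction. Thbs4 (chr13:92751590-92794818, minus strand) gave 63.0, 93.4 and 82.0 UMIs per 10000 in the members at 2 days, 6 weeks and 13 weeks, beside 3.87, 4.19 and 4.70 in the other kept cells. Fmod (chr1:134037254-134048277, plus strand) gave 81.3, 78.4 and 57.1, beside 5.51, 4.09 and 5.08. Tnmd (chrX:133850980-133865577, plus strand) gave 43.1, 47.8 and 39.5, beside 1.26, 1.56 and 2.03. Positions are those of GENCODE M21 on GRCm38. A single cell reached 53 Thbs4, 78 Fmod or 26 Tnmd UMIs. All 3 genes were seen in 127 members, 2 of them in 38 and 1 of them in 9.

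The edge of the rule was not empty. Exactly 3 rule UMIs were found in 13 members and exactly 2 in 37 cells just outside, while 97 members had 12 or more. The members at 3 gave 7.98 Cpxm2 and 58.3 Mgp UMIs per 10000, and the cells at 2 gave 3.68 and 78.8. For Ogn the levels were 18.4 and 4.46, and for Cilp 1.60 and 6.83, from 2 and 26 Cilp UMIs. Mgp and Cilp were thus lower just inside the rule than just outside it. A further 13 cells reached 3 rule UMIs but held Rgs5, 10 of them through 1 Rgs5 UMI, and were counted among the other cells. In 40 members Gsn, Ly6a and Pdgfra, which mark another fibroblast class, also gave 3 or more UMIs.

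**Figure D1:**
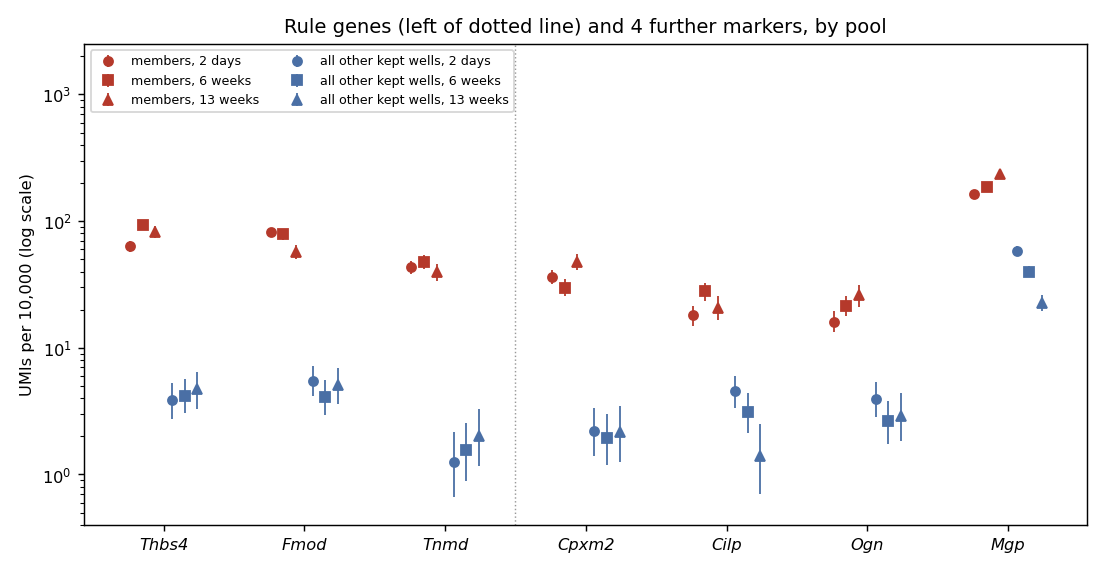
UMIs per 10000 (vertical axis, log scale) of the 3 rule genes and of Cpxm2, Cilp, Ogn and Mgp in the members (red) and all other kept cells (blue), by pool (circle 2 days, square 6 weeks, triangle 13 weeks), with 95% Poisson intervals of counting error. In every pool each of the 7 genes lies higher in the members, and at 2 days and 6 weeks the Mgp levels of the other cells lie nearest on the log axis, at 58.3 and 39.9 beside 163 and 186.

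The 250 bases before the RefSeq start of the rule genes, and of Cilp and Angptl7 described further on, are shown because Scx binds E-boxes and was itself higher in the members. Each is on GRCm38.p6, written 5′ to 3′ on the gene's strand, and capitals mark every CANNTG, the general E-box, which reads the same on both strands.
Tnmd, chrX:133850758-133851007, plus strand: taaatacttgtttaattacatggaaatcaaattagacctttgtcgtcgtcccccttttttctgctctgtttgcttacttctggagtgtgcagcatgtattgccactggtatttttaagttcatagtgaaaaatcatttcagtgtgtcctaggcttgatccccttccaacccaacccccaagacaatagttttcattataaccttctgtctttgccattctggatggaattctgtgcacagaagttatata
Fmod, chr1:134037004-134037253, plus strand: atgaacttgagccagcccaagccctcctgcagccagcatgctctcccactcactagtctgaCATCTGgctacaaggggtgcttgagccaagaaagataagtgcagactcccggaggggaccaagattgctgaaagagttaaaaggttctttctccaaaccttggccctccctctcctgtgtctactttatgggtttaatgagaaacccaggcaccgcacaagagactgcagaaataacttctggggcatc
Thbs4, chr13:92794819-92795068, minus strand: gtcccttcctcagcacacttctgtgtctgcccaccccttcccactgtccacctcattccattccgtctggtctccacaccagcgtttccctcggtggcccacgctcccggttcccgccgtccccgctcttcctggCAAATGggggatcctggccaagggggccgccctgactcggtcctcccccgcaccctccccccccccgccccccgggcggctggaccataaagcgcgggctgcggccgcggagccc
Cilp, chr9:65264930-65265179, plus strand: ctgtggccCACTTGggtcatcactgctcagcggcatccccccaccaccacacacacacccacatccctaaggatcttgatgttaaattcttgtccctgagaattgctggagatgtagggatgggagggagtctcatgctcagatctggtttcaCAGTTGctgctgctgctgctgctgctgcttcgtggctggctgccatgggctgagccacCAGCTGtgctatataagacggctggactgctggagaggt
Angptl7, chr4:148500463-148500712, minus strand: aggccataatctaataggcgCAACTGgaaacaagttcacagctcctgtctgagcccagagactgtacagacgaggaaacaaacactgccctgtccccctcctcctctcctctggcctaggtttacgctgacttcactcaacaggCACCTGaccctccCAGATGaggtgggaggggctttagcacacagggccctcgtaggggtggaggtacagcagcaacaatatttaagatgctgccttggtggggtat

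The Tnmd window held no CANNTG, the Fmod window held CATCTG starting 189 bases before the start, and the Thbs4 window held CAAATG starting 115 bases before it. The Cilp window held 3 matches, which started 242, 97 and 39 bases before its start. The Angptl7 window held 3 matches, which started 230, 106 and 93 bases before its start. Of 14 genes looked up, 10 had an entry, while Mgp, Scx, Mkx and Comp did not, and 8 of the 10 held the motif. The motif stood in 66.2% of all 32851 promoter windows, in 55.3% of those of the genes tested, in 59.3% of the 123 windows of genes higher in the members and in 64.3% of the 182 windows of genes lower in them. A match in such a window is a description of the letters alone.

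To ask which other genes went with the rule genes, the members were compared with the 329 other kept cells. Counts were summed per pool and class, and the 3 pools served as replicates in a quasi-likelihood test (edgeR) with the pool as a block and without the rule genes. The p-values rest on the spread of the difference between these 3 pools, moderated across genes. Of 3791 genes tested, 162 (4.27%) were higher and 185 (4.88%) lower in the members at an adjusted p under 0.05, or 347 (9.15%) in all. Of the lower genes, 138 had under 20 UMIs in the members, and of the higher genes 61 had under 20 UMIs in the other cells. Such genes reached the minimum of 20 UMIs over both classes mainly through the class where they were high, so their calls could hardly have gone the other way.

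Cpxm2, Cilp, Ogn and Mgp were proposed as markers from these same cells and are no independent evidence, and all 4 were higher in the members in 3 of 3 pools. Cpxm2, which encodes a carboxypeptidase-like secreted protein, gave 36.2 (95% interval 31.8 to 41.0), 29.9 (25.5 to 34.9) and 47.7 (41.1 to 55.0) per 10000, beside 2.22, 1.95 and 2.16 in the other cells. The log2 fold change was 4.20 ± 0.26 (SE, edgeR adjusted p = 2.4e-13). Cilp, cartilage intermediate layer protein, gave 18.0, 27.9 and 20.8 beside 4.54, 3.12 and 1.40 (log2 fold change 2.96 ± 0.29, edgeR adjusted p = 8.3e-09). Ogn, osteoglycin, another fibril-associated proteoglycan, gave 16.1, 21.4 and 25.9 beside 3.96, 2.63 and 2.92 (2.77 ± 0.27, edgeR adjusted p = 7.4e-09). Mgp, matrix Gla protein, an inhibitor of mineral deposition, gave 163, 186 and 237 beside 58.3, 39.9 and 22.7 (2.42 ± 0.24, edgeR adjusted p = 1.1e-08). For each of the 4 genes the lowest member pool stood above the highest pool of other cells, and each call held without each pool in turn.

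Genes of tendon and ligament were mostly higher. Of 19 tested genes of this list, 16 were higher in the members and Col14a1 was lower, with a median log2 fold change of 2.65 beside -0.07 over all genes tested. Scx, Mkx, Wif1, Cilp2, Kera, Fibin and Angptl7 had under 20 UMIs in the other cells and entered the test mainly through the members. Scx, the tendon-specifying transcription factor, gave 3.25, 4.06 and 3.07 per 10000 in the members and 0.290, 0 and 0.127 in the other cells, that is 56 UMIs against 4 (log2 fold change 4.55 ± 0.54, edgeR adjusted p = 3.7e-07). Scx was seen in 22.4%, 23.4% and 23.3% of the members, beside 0%, 0% and 2.63% of the Rgs5 cells, whose median depths were 588, 621 and 562.5 UMIs. With every cell thinned to 300 UMIs, the shares of members were 6.15%, 6.56% and 4.65%. Mkx, the other tendon transcription factor, rested on 22 UMIs against 4 (3.24 ± 0.71, edgeR adjusted p = 0.0024). Without the 2-day or the 6-week pool Mkx fell under the minimum of 20 UMIs and was not tested.

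Keratocan and chondroadherin, both leucine-rich repeat proteins of dense connective tissue, were higher in every pool. Kera gave 9.45, 7.20 and 7.69 per 10000 beside 0.580, 0.0975 and 0.888 (log2 fold change 4.09 ± 0.40, edgeR adjusted p = 9.7e-09). Chad gave 14.5, 16.4 and 9.48 beside 0.677, 1.85 and 1.27 (3.51 ± 0.32, edgeR adjusted p = 3.5e-09). The member pools of both genes stood well apart from those of the other cells. Comp, cartilage oligomeric matrix protein, which bridges collagen molecules, gave 7.23, 14.2 and 4.61 beside 0.580, 1.27 and 0.888 (3.31 ± 0.35, edgeR adjusted p = 4.9e-08). Prg4, the lubricant proteoglycan of gliding surfaces, gave 18.7, 25.7 and 18.2 beside 2.51, 5.26 and 2.92 (2.66 ± 0.25, edgeR adjusted p = 5.5e-09). Angptl7, a secreted angiopoietin-like protein, gave 23.5, 16.1 and 5.38 beside 1.16, 0.292 and 0.254 (4.79 ± 0.36, edgeR adjusted p = 3e-11). It was unevenly spread, with a single 2-day cell holding 73 of the 159 UMIs of that pool.

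Among other genes of the list, Wif1, a secreted inhibitor of Wnt ligands, gave 8.27, 3.51 and 1.54 beside 0.193, 0.195 and 0.381 (log2 fold change 4.17 ± 0.49, edgeR adjusted p = 3.3e-07). Cilp2, Col11a1, Col12a1, Thbs2, Tnc and Pdgfrl were higher with log2 fold changes of 4.26, 2.65, 2.45, 2.62, 2.35 and 2.05, and each call held without each pool. Fibin (2.49) and Aspn, asporin (1.03), lost their call without the 6-week pool, at 1.81 and 0.61. Thbs3 and Dkk3 did not pass (0.52 and 0.76), and Htra4 gave no UMI in the members. Col14a1, a collagen on the surface of fibrils, ran the other way, at 1.03, 0 and 0.512 per 10000 in the members and 2.42, 2.83 and 1.52 in the other cells (-1.98 ± 0.52, edgeR adjusted p = 0.011). It had 9 UMIs in the members against 66, so it entered the test through the other cells, and its call was lost without the 6-week pool (-1.18).

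**Figure D2:**
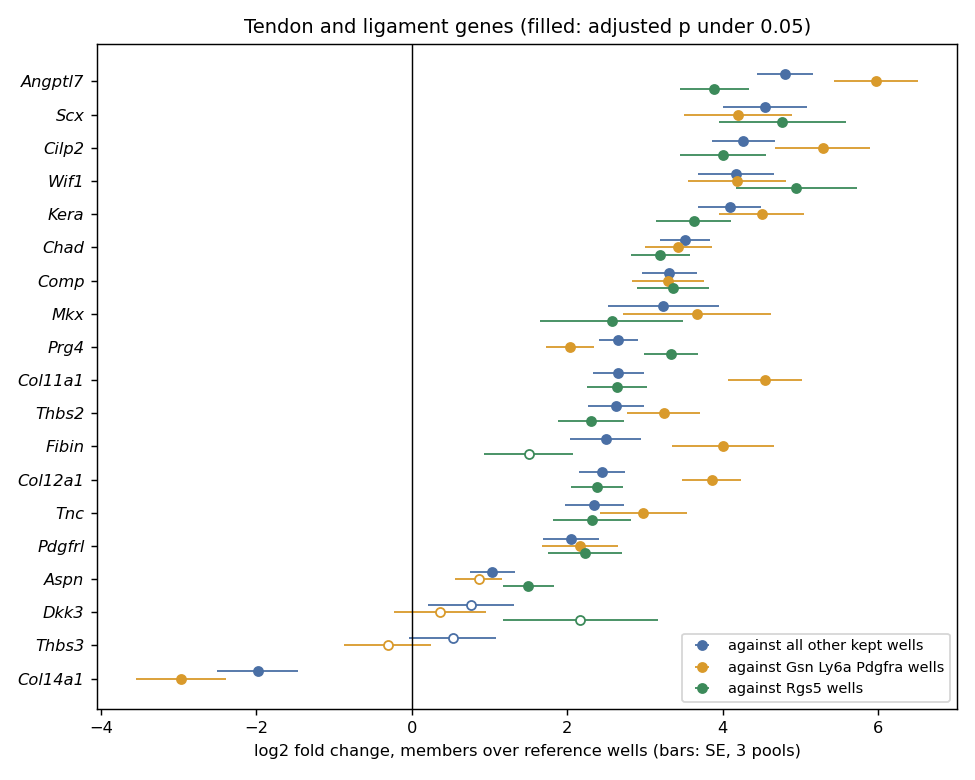
Log2 fold change of each tendon and ligament gene in the members over all other kept cells (blue), Gsn Ly6a Pdgfra cells (yellow) and Rgs5 cells (green). Bars are SE derived from the log2 fold change and the quasi-likelihood F statistic, and filled points have an adjusted p under 0.05. Most genes lie to the right of 0 against all references, and Col14a1 lies to the left, at -1.98 against all other kept cells.

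The genes with the largest fold changes included several outside the tendon list. Crispld1, a secreted cysteine-rich protein gene (chr1:17727045-17766344, plus strand), gave 1.92, 3.69 and 6.41 per 10000 in the members and 0.193, 0.0975 and 0 in the other cells, that is 58 UMIs against 3. Its log2 fold change of 5.01 ± 0.57 (edgeR adjusted p = 1.4e-07) was the highest of the genes called. Gm525, Zfp185 and Fam159b followed with 4.96, 4.11 and 4.07, from 41, 32 and 30 member UMIs against 2, 3 and 3. The other leading genes were Angptl7, Scx, Cilp2, Cpxm2, Wif1 and Kera.

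Of 11 tested small leucine-rich proteoglycans, 8 were higher and 3 did not pass, with a median log2 fold change of 1.26. Ogn, Kera, Chad and Aspn are counted here again. Decorin (Dcn), which binds collagen fibrils and limits their width, gave 102, 116 and 86.1 per 10000 beside 50.6, 51.9 and 32.7 (1.26 ± 0.19, edgeR adjusted p = 1.4e-05). Prelp, which links collagen to basement membranes, gave 15.1, 29.9 and 14.1 beside 7.15, 4.09 and 5.96 (1.80 ± 0.29, edgeR adjusted p = 3.5e-05). Ecm2 was higher at 2.77. Biglycan (Bgn) was higher at 1.04 (edgeR adjusted p = 0.0044), and this call was lost without the 13-week pool, at 0.70. Lumican (Lum) did not pass, at 5.46, 6.46 and 0.769 in the members and 7.15, 5.17 and 3.68 in the other cells.

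Against all other kept cells type I collagen was higher, and type III was not. Col3a1 was lower than in the Gsn Ly6a Pdgfra cells and higher than in the Rgs5 cells, which are compared further on. Col1a1 gave 102, 141 and 55.3 per 10000 beside 47.8, 81.6 and 8.503 (log2 fold change 1.52 ± 0.24, edgeR adjusted p = 4.1e-05). Col1a2 gave 288, 319 and 200 beside 110, 146 and 30.2 (1.80 ± 0.22, edgeR adjusted p = 5.8e-07). At 6 weeks Col1a2 was found in 100% of the cells of every class, with 3 UMIs or more in each, and whether free RNA adds to this was not tested. Both calls were lost without the pool block. Col3a1 gave 63.2, 52.6 and 9.48 in the members and 80.6, 37.9 and 29.1 in the other cells (-0.33 ± 0.25, edgeR adjusted p = 0.53). With Col11a1, 3 of 8 fibrillar collagens passed, and Col5a1, Col5a2, Col5a3 and Col11a2 did not.

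Of 4 tested fibril-associated collagens, Col12a1, Col16a1 (2.20) and Col22a1 were higher and Col14a1 lower. Col22a1, a collagen of the junction between muscle and tendon, gave 8.12, 7.57 and 12.8 per 10000 beside 0.387, 0.877 and 0.888 (log2 fold change 3.76 ± 0.35, edgeR adjusted p = 5.5e-09). All member pools of Col22a1 stood above all pools of other cells. Of 17 tested genes for collagen processing and cross-linking, 4 were higher and 1 lower. Lox, the enzyme that starts collagen cross-links, gave 5.31, 7.01 and 2.56 beside 1.35, 1.27 and 1.02 (2.09 ± 0.35, edgeR adjusted p = 8.2e-05). The collagen chaperone Serpinh1 and the procollagen C-proteinase enhancer Pcolce (1.10 and 1.11) lost their call without the 13-week pool, at 0.76 and 0.61, and Crtap (1.56) lost it without the 2-day pool. Pcolce2, at 17 UMIs in the members against 87, was lower (-1.42, edgeR adjusted p = 0.020), and this call was lost without the 6-week pool (-0.97). Of 11 tested elastic fiber genes, Mfap4 (2.45) and Emilin1 (2.02, lost without the 6-week pool at 1.90) were higher.

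Among proteins that stand in the matrix without building fibers, or that hold back mineral, 16 of 25 tested genes were higher, with a median log2 fold change of 1.78. Beside Mgp, Cilp, Cilp2, Comp, Tnc and Thbs2, the group included Sparc, a collagen-binding glycoprotein, at 204, 219 and 133 per 10000 beside 84.7, 117 and 41.6 (1.35 ± 0.19, edgeR adjusted p = 3.8e-06). Sparc lost its call without the pool block. Periostin (Postn), an adhesion protein of periosteum and ligament, gave 20.4, 25.1 and 32.0 beside 8.31, 5.95 and 4.19 (2.13 ± 0.26, edgeR adjusted p = 5.8e-07). Ctgf, a secreted CCN-family protein, gave 8.41, 5.91 and 14.3 beside 2.13, 0.877 and 0.508 (2.99 ± 0.37, edgeR adjusted p = 7.2e-07). Each of these genes was higher in 3 of 3 pools. Serpinf1, Abi3bp, Thbs1, Wisp1 and Enpp1, the last an enzyme that makes the mineralization inhibitor pyrophosphate, were higher at 1.79, 2.14, 2.39, 1.78 and 2.42. Cyr61 (1.25) lost its call without the 13-week pool and Fndc1 (1.49) without the 6-week pool, at 0.88 and 1.19. Spp1, osteopontin, did not pass (1.35, edgeR adjusted p = 0.053).

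Proteases and their inhibitors were mixed, with 6 higher and 3 lower of 16 tested. Mmp2 (1.44), the inhibitor Timp1 (2.37) and cystatin C (Cst3, 1.00) were higher with Cpxm2. The aggrecan-cleaving protease Adamts5 gave 3 UMIs in the members and 55 in the other cells (-3.26 ± 0.65, edgeR adjusted p = 0.00079), and Adamts1 (-1.53, 15 UMIs against 84) and Cpe (-2.07, 9 against 75) were also lower. These 3 genes entered the test through the other cells. The calls of Adamts1 and Cpe were lost without the 6-week pool (-1.55 and -1.51), and that of Adamts1 also without the 2-day pool (-1.0045). Htra1 (1.22) lost its call without the 2-day or the 6-week pool, at 1.15 and 1.34. Mmp13, a collagenase, gave 4.58, 13.3 and 0.256 per 10000 beside 0, 6.34 and 0.127 (2.03 ± 0.48, edgeR adjusted p = 0.0043). Its 104 UMIs were concentrated, and without the 5% deepest cells the fold change was -0.08.

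Of 16 tested secreted signals, 4 were higher and 1 lower. Tgfb3, a growth factor active in tendon, was higher at 1.65 (edgeR adjusted p = 0.0035), beside Wif1. Igfbp6 (0.87) and Sfrp2 (1.58) lost their call without the 6-week pool, at 0.84 and 2.06, and Sfrp2 also without the 13-week pool, at 1.07. Cxcl12, a chemokine of perivascular stroma, gave 20 UMIs in the members and 188 in the other cells (-2.30 ± 0.39, edgeR adjusted p = 9.7e-05).

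Of 16 tested fibroblast or progenitor genes, 7 were lower and Dcn was higher. Of the 7, only Gsn, Ly6a and Ly6c1 had 20 or more UMIs in the members, and Dpt, Cd34, Clec3b and Entpd2 passed the minimum through the other cells. Gsn, gelsolin, an actin-severing protein, gave 17.3, 14.6 and 15.4 per 10000 in the members and 57.3, 76.6 and 33.2 in the other cells (-1.69 ± 0.23, edgeR adjusted p = 2.6e-06). Ly6a, which encodes the stem cell antigen Sca1, was lower at -1.46, and Dpt, Cd34, Ly6c1, Clec3b and Entpd2 were lower at -2.36, -2.33, -2.54, -2.09 and -2.09. These 7 genes were lower in 3 of 3 pools. The call of Dpt was lost without the 6-week pool (-1.65, edgeR adjusted p = 0.065), and that of Entpd2 was lost without the 2-day pool (-1.03, edgeR adjusted p = 0.60) and without the 6-week pool (-2.27, edgeR adjusted p = 0.14). With members chosen at 2 or more UMIs, 3 of the 7 calls were lost, those of Ly6a (-0.67, edgeR adjusted p = 0.17), Dpt (-0.58, edgeR adjusted p = 0.46) and Entpd2 (-1.24, edgeR adjusted p = 0.18). With cells thinned to 300 UMIs the calls of Cd34, Clec3b and Dpt were lost (edgeR adjusted p = 0.12, 0.16 and 0.17). DESeq2 and read counts each lost Clec3b and Entpd2. Gsn and Ly6c1 kept their call in all 19 alternatives, at -0.86 and -1.57 with members chosen at 2 or more UMIs. Ly6c1 is also on the endothelial list and is counted there again.

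All 9 tested endothelial genes were lower in the members, with a median log2 fold change of -4.04, or -3.81 with the genes at 0 set to the bound that 3 counts over the class allow. Flt1 gave 0 UMIs in the members and 102 in the other cells and was at least 19.2-fold lower, and Fabp4, a fatty acid carrier of capillary endothelium, gave 4 against 975. The calls of Cdh5 and Kdr, at 2 and 1 UMIs in the members, were lost without the 6-week pool (-2.72 and -3.41). All 10 tested skeletal muscle genes and all 4 tested hemoglobin genes were lower, with Hbb-bs at 9 UMIs against 760. These calls rested on 16 cells rich in hemoglobin or muscle genes, none of which was a member. Without them edgeR called 0 of 5 tested muscle genes (-0.72 to 0.75) and 0 of 1 hemoglobin gene (Hbb-bs at -0.48), and 0 of either at an unadjusted p under 0.05. Most genes of these lists passed the minimum of 20 UMIs through the other cells, since 1 of 12 endothelial, 1 of 12 muscle, 0 of 5 hemoglobin and 2 of 12 perivascular genes had 20 UMIs in the members.

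Of 10 tested perivascular genes, 5 were lower (median -1.71), Rgs5 being left out as a rule gene. Myh11, smooth muscle myosin, gave 0 UMIs against 87 and was at least 16.4-fold lower, and Notch3, Kcnj8 and Abcc9 were lower at -3.85, -2.61 and -3.77. The call of Kcnj8 was lost without the 2-day pool (-2.17), and Abcc9 was not tested without the 6-week or the 13-week pool. Acta2, the gene whose promoter drives the label, gave 4.13, 1.11 and 2.56 per 10000 in the members and 4.74, 6.14 and 12.3 in the other cells (-1.38 ± 0.36, edgeR adjusted p = 0.010). This call was lost without the 6-week pool (-0.98) or the 13-week pool (-0.99). The immune list summed to 17 UMIs in the members and 133 in the other cells (1.06 and 4.67 per 10000), with 3 of its 8 listed genes at 0 in the members. The adipocyte list summed to 2 and 3 UMIs. Their defining markers Ptprc and Adipoq gave 0 UMIs in the members and 2 and 1 in the other cells, too few to compare. Of 5 tested osteoblast genes edgeR called 0, with 1 (Bglap) at an unadjusted p under 0.05, and DESeq2 called 0 of the 3 named.

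**Figure D3:**
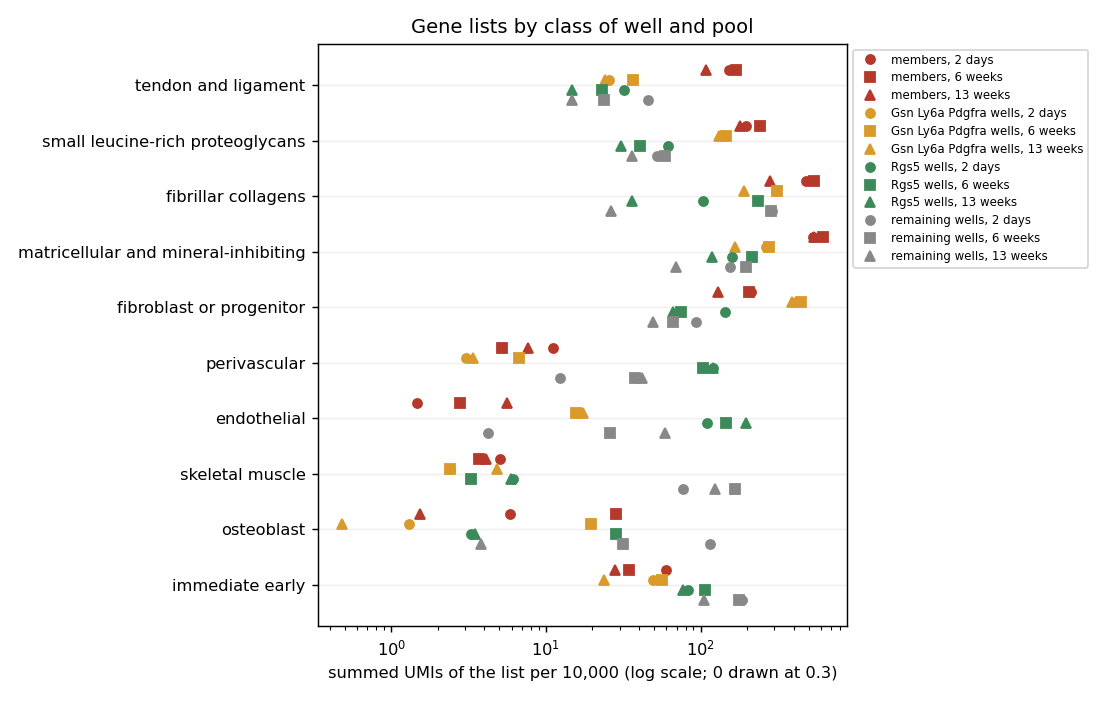
Summed UMIs per 10000 (horizontal axis, log scale) of 10 gene lists in the members (red), Gsn Ly6a Pdgfra cells (yellow), Rgs5 cells (green) and remaining cells (gray), by pool (circle 2 days, square 6 weeks, triangle 13 weeks). The perivascular list holds Rgs5 and the fibroblast list Gsn, Ly6a and Pdgfra, which chose the classes. The tendon and ligament list lies at 152, 170 and 108 in the members, and the endothelial list lies at 1.48, 2.77 and 5.64 in the members and at 111, 145 and 197 in the Rgs5 cells.

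Immediate early genes, which cells raise within minutes of stimulation or of tissue digestion, were lower in the members for 8 of 13 tested. The summed list gave 59.5, 34.3 and 27.9 per 10000 in the members and 100.5, 103 and 72.2 in the other cells. Junb gave 2.36, 2.40 and 2.31 beside 6.77, 11.99 and 6.73 (log2 fold change -1.73 ± 0.31, edgeR adjusted p = 0.00024), and Fosb (-1.43) was also lower. Atf3 (-2.64) had 5 UMIs in the members against 55, entered the test through the other cells and was not tested without the 2-day pool. The calls of Fos, Jun, Egr1, Btg2 and Zfp36 (-1.08, -1.18, -0.79, -1.60 and -2.13) were lost without the 6-week pool, at -1.06, -0.57, -0.44, -1.58 and -1.63, and that of Fos also without the 13-week pool, at -0.74. Of 6 tested heat shock genes, Dnajb1 and Hspb1 were lower, at 4 and 8 UMIs in the members against 39 and 57. Both entered the test through the other cells, and both calls were lost without the 2-day pool (-1.29 and -1.59) or the 6-week pool (-2.48 and -2.07).

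The second comparison set the members against 95 other fibroblast-like cells, which had 3 or more UMIs of Gsn, Ly6a and Pdgfra together, no Rgs5 and fewer than 3 rule UMIs. It asks what sets these fibroblast classes apart. Of 2211 genes tested, 87 (3.93%) were higher and 59 (2.67%) lower in the members, or 146 (6.6%) in all, with the genes of both rules left out. Of the higher genes, 64 had under 20 UMIs in the reference cells, and of the lower genes 36 had under 20 in the members. Such genes entered the test mainly through the class where they were high, so their calls could hardly have gone the other way. The Gsn Ly6a Pdgfra cells had a median of 905 UMIs.

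Against this class, 15 of 19 tested tendon and ligament genes were higher (median log2 fold change 3.43, beside 0.03 over all genes). Most genes called higher against this class entered the test mainly through the members, which limits this count. Angptl7 (5.97), Cilp2 (5.28), Col11a1 (4.54), Kera (4.50), Scx (4.20) and Col12a1 (3.86) led the list. Col22a1 was higher at 5.01 ± 0.54 (edgeR adjusted p = 3.7e-05), and Cpxm2, Cilp, Ogn and Mgp at 4.25, 2.30, 2.26 and 2.09. Decorin, a gene shared by fibroblasts, did not pass (0.36 ± 0.20, edgeR adjusted p = 0.43), nor did Bgn (0.44), Lum (-0.91) or Igfbp6 (-0.29). Lox (2.03) lost its call without the 2-day or the 6-week pool. Also not called higher against this class were Aspn, Tgfb3, Sfrp2, Mmp2, Htra1, Mmp13, Serpinh1, Pcolce, Crtap, Emilin1, Enpp1 and Fndc1. Of 14 tested genes for collagen processing and cross-linking 1 was higher and 2 lower, and of 11 elastic fiber genes 1 and 3. Of 15 tested secreted signals 1 was higher and 1 lower, and of 15 proteases and inhibitors 3 and 1.

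Of 13 tested fibroblast or progenitor genes, 7 were lower and 6 did not pass. The reference cells had been chosen on 3 other genes of this list, and Dpt, Cd34, Clec3b, Entpd2 and Pi16, each under 20 UMIs in the members, passed the minimum through the reference, as did Col14a1, Adamts5 and Pcolce2. Dpt, dermatopontin, was lower at -3.32 ± 0.50 (edgeR adjusted p = 0.00052), Cd34 at -3.21, Clec3b at -3.10, Entpd2 at -3.00, Ly6c1 at -2.86 and Pi16 at -2.58. The call of Pi16 was lost without the 6-week pool (-2.88), and Entpd2 was not tested without the 2-day pool. Col3a1 gave 123, 72.6 and 91.6 per 10000 in the Gsn Ly6a Pdgfra cells, beside 63.2, 52.6 and 9.48 in the members (-1.29 ± 0.37, edgeR adjusted p = 0.049). Every Col3a1 pool was lower in the members, and the call was lost without the 2-day pool (-1.56) or the 13-week pool (-0.59). Col14a1 (-2.97), Adamts5 (-4.06), Pcolce2 (-2.52), Smoc2 (-1.85) and the microfibril gene Mfap5 (-1.77) were lower. Fbn1 (-1.62) and Ltbp4 (-1.44) lost their call without the 2-day pool.

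Acta2 was higher than in the Gsn Ly6a Pdgfra cells (log2 fold change 1.91 ± 0.53, edgeR adjusted p = 0.040), and this call was lost without the 2-day pool, at 1.198, and with scaling by total UMIs alone. Of 10 tested immediate early genes edgeR called 0, with 0 at an unadjusted p under 0.05, and DESeq2 called 0.

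The third comparison set the members against 118 cells with 1 or more Rgs5 UMIs. Of 2120 genes tested, 171 (8.07%) were higher and 147 (6.93%) lower in the members, or 318 (15%) in all. Of the higher genes, 126 had under 20 UMIs in the Rgs5 cells, and of the lower genes 101 had under 20 in the members. Such genes entered the test mainly through the class where they were high, so their calls could hardly have gone the other way. Without Rgs5, which the rule set to 0 in the members, the other 11 perivascular genes summed to 49.7, 33.6 and 52.8 per 10000 in the Rgs5 cells and to 11.1, 5.17 and 7.69 in the members.

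Against the Rgs5 cells, 15 of 17 tested tendon genes, 8 of 10 proteoglycans and 17 of 22 matricellular and mineral-inhibiting genes were higher (medians 2.64, 2.58 and 2.35 beside 0.03 over all genes). Most genes called higher against the Rgs5 cells entered the test mainly through the members, which limits these counts. Decorin was higher at 2.39 ± 0.31 (edgeR adjusted p = 1.3e-09), and Igfbp6 at 3.11 ± 0.36 (edgeR adjusted p = 1.1e-11). Col1a1 and Col1a2 were higher at 2.25 and 2.43, and both calls were lost without the 13-week pool. Col3a1, Col5a2 and Col11a1 were also called higher. All 9 tested perivascular genes and all 9 tested endothelial genes were lower. Of these, 7 perivascular and 8 endothelial genes had under 20 UMIs in the members and entered the test through the reference, which had been chosen on Rgs5, the first gene of the perivascular list. Tagln lost its call without each of the 3 pools. Acta2 was lower at -1.76 and lost its call without the 13-week pool, and Gsn did not pass (0.02). Of 11 tested fibroblast or progenitor genes, 3 were higher (Dcn, Col3a1 and Prrx1) and 2 lower (Ly6a and Ly6c1). The call was lost without the 13-week pool for 35 of 86 named genes.

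Within the members, a split on Angptl7, chosen after the values were seen and given without a test, put 26, 18 and 9 cells with an Angptl7 UMI against 41, 46 and 34 without. Median depths were 811.5, 652 and 624 UMIs with Angptl7 and 876, 697 and 815 without. Fmod, a gene of the rule that chose the members, gave 154, 141 and 117 per 10000 in cells with Angptl7 and 39.0, 52.7 and 45.6 in cells without. Chad gave 26.4, 29.0 and 20.5 against 7.48, 11.2 and 7.34. Dcn gave 163, 208 and 99.6 against 67.1, 77.5 and 83.5, and Prelp 29.2, 61.2 and 26.9 against 6.78, 17.0 and 11.6. Among the marker, tendon, proteoglycan and fibrillar collagen genes set against this split, only Fmod and Chad had Poisson intervals apart in every pool. The intervals of Dcn and Prelp overlapped at 13 weeks.

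Mgp gave 72.1, 71.3 and 242 per 10000 in cells with Angptl7 against 216, 233 and 236 in cells without. At 13 weeks a single cell held 93 of the 153 Mgp UMIs of the cells with Angptl7, and without it their level was 114. The median Mgp level of single cells was 52.4, 45.2 and 96.2 per 10000 with Angptl7 and 137, 162 and 162 without, lower with Angptl7 in all 3 pools. Over the single members, Spearman's rho of Fmod and Angptl7 was 0.73, 0.54 and 0.41, and that of Fmod and Mgp was -0.29, -0.34 and -0.44 (n = 67, 64 and 43 cells). The cells of a pool share their library, and both genes of a pair share the cell's depth, so these values are descriptions.

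**Figure D4:**
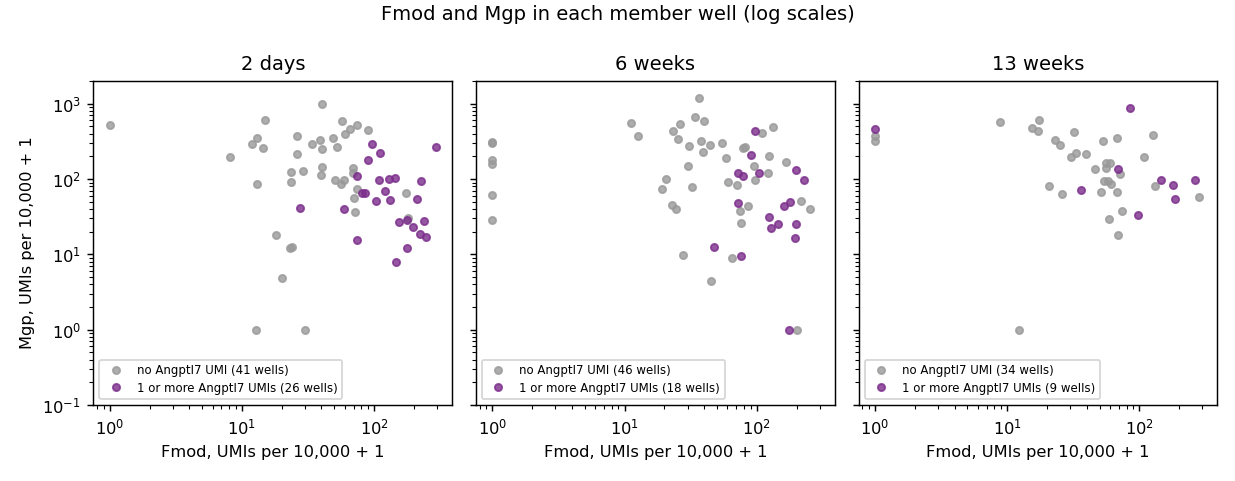
Mgp against Fmod in each member, in UMIs per 10000 + 1 on log scales, with a panel for each pool and purple points for cells with 1 or more Angptl7 UMIs. At 2 days and 6 weeks the purple points lie toward high Fmod and low Mgp, and at 13 weeks 9 purple points are spread along the Mgp axis.

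The share of members among kept cells was 37.0% at 2 days (Clopper-Pearson 95% interval 30.0 to 44.5), 33.9% at 6 weeks (27.2 to 41.1) and 32.3% at 13 weeks (24.5 to 41.0). The intervals overlap. With cells thinned to 300 UMIs before the rule was applied, the shares were 29.7%, 28.0% and 28.6%. With 1 pool per time point no test between times was possible.

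Within the members, 252 genes had 50 or more UMIs at 2 days and 13 weeks together, the pools that shared a plate. Of these, 7 (2.78%) were over 2-fold higher and 26 (10.3%) over 2-fold lower at 13 weeks, and the median ratio was 0.838. The 4 marker genes that the rule did not use had ratios of 1.45 for Mgp, 1.61 for Ogn, 1.32 for Cpxm2 and 1.15 for Cilp. The ratios of Thbs4, Tnmd and Fmod, at 1.30, 0.915 and 0.703, are affected by the rule, which asked every member for UMIs of these genes at every time point, and show no stability. In the other cells the Mgp ratio was 0.390.

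The lowest ratio was that of Col3a1, at 0.150 (95% interval 0.104 to 0.210), beside 0.361 in the other cells. Col5a2, which joins type I collagen in fibrils, was at 0.390, Col1a1 at 0.545 and Col1a2 at 0.692. In the other cells the ratios of Col1a1 and Col1a2 were 0.178 and 0.274. Type I and type III collagen were lower at 13 weeks in both groups of cells. Wif1 (0.186), S100a4 (0.227), Angptl7 (0.229) and Fos (0.262) followed Col3a1. The Angptl7 ratio rested in part on the 2-day cell with 73 of 159 UMIs, without which the 2-day level was 13.3 per 10000 and the ratio 0.404. S100a4, a calcium-binding protein of fibroblasts, gave 19.2, 14.6 and 4.36 per 10000 in the members and 6.48, 6.63 and 11.7 in the other cells. All 3 immediate early genes with enough UMIs were under a ratio of 0.5, as Jun (0.404), Egr1 (0.484) and Fos. Igf1 and Igfbp5, a growth factor and a protein that binds it, were at 0.473 and 0.483. A single cell held 56 of the 151 Igfbp5 UMIs at 2 days and another 16 of the 42 at 13 weeks, and the ratio was 0.742 without the first and 0.307 without the second.

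Chodl, chondrolectin, a membrane lectin that was on the list of muscle satellite markers, gave 7.68, 15.3 and 23.1 per 10000 in the members and 3.67, 3.31 and 2.92 in the other cells. It was higher in the members (log2 fold change 2.15 ± 0.30, edgeR adjusted p = 3.3e-06), the only one of 3 tested satellite genes to be so, where the defining satellite cell markers Pax7 (2 UMIs) and Cdh15 (0 UMIs) were at or near 0. Its ratio of 13 weeks to 2 days was 3.004 (2.11 to 4.31) in the members and 0.795 (0.452 to 1.37) in the other cells. Mfap5 was at 2.22 and fell to 0.648 with cells thinned to 300 UMIs. The other genes over 3-fold were the noncoding RNAs Neat1 (3.34), Rpph1 (3.39) and mmu-mir-6236 (3.56). The Neat1 ratio was 3.31 in the other cells.

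The summed osteoblast list, given without a test, gave 5.91, 28.6 and 1.54 per 10000 in the members, 1.30, 19.6 and 0.482 in the Gsn Ly6a Pdgfra cells, 3.28, 28.4 and 3.46 in the Rgs5 cells and 115, 31.6 and 3.81 in the remaining cells. The members, the Gsn Ly6a Pdgfra cells and the Rgs5 cells had their highest value at 6 weeks, and the remaining cells at 2 days, where 8 of 41 cells held all 380 UMIs. Bglap, osteocalcin, was seen in 65.6% of members, 70.0% of Gsn Ly6a Pdgfra cells, 53.3% of Rgs5 cells and 32.5% of remaining cells at 6 weeks, and in 13.4%, 7.89%, 17.1% and 4.88% at 2 days. With cells thinned to 300 UMIs the shares at 6 weeks were 36.1%, 30.0%, 31.1% and 25.0%, with overlapping intervals. The source of these UMIs was not tested, and the shares are not read as expression by the members. Bglap2 was higher than in the Gsn Ly6a Pdgfra cells and the Rgs5 cells (1.89 and 1.67, edgeR adjusted p = 0.049 and 0.045), and both calls were lost without the 2-day or the 13-week pool.

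**Figure D5:**
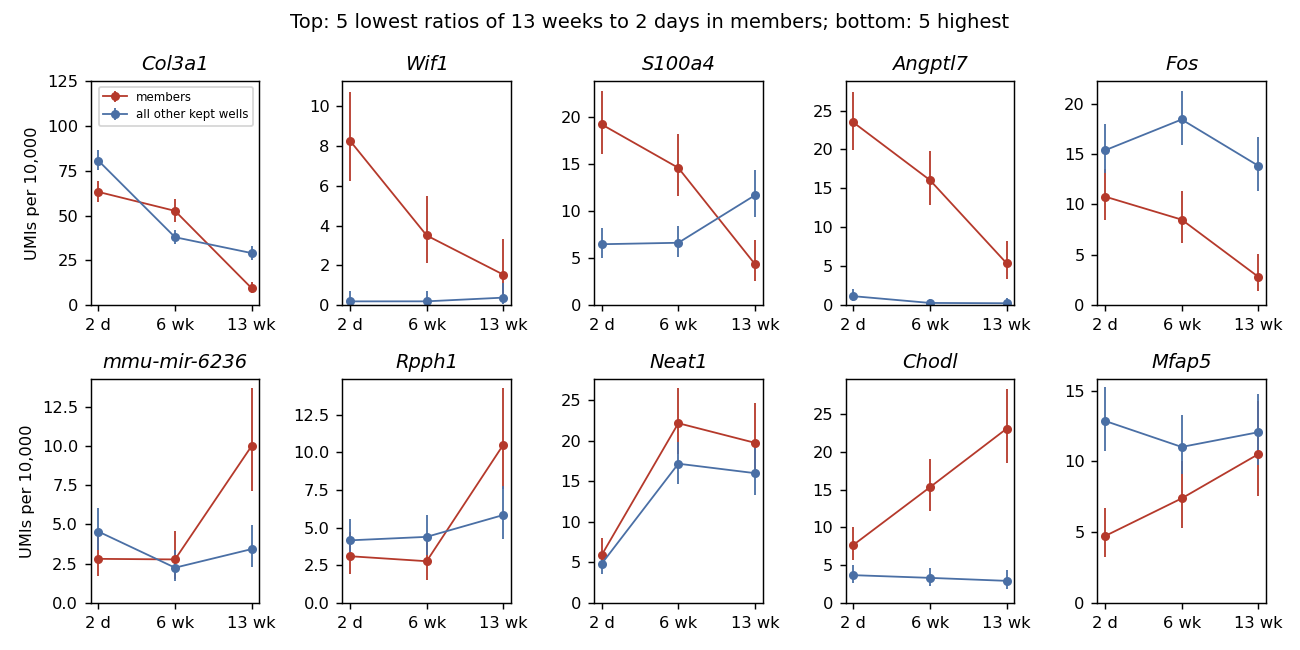
UMIs per 10000 (vertical axes, each from 0) at 2 days, 6 weeks and 13 weeks in the members (red) and all other kept cells (blue), with 95% Poisson intervals of counting error, 1 pool per point. The top row holds the 5 lowest ratios of 13 weeks to 2 days in the members, from Col3a1 at 0.150, with Angptl7 at 0.229 or at 0.404 without a single 2-day cell, and the bottom row the 5 highest, among them Chodl at 3.004.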

How the data were processed

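Per the submitters' processing notes and methods, reads were demultiplexed with bcl2fastq 2.18.0.12, handled with Picard 2.9.3 and Drop-seq tools, and aligned to GRCm38 with STAR 2.5.4a. The authors deposited raw counts of UMIs and of reads for each gene in each well of 2 plates of 384-well format after 13 PCR cycles on 3′ ends. A table of theirs assigned 600 wells to a time point, and the 168 other wells were not used. Genes that only 1 plate listed were taken as 0 for the other plate.

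Wells with 200 or more genes were kept. The members, the reference classes and the gene lists were chosen with earlier results of these data known. UMI counts were summed per pool and class and tested in edgeR 4.0.16 (R 4.3.3) with TMM factors, the quasi-likelihood test, the pool as a block, 20 or more UMIs over the sums and Benjamini-Hochberg adjustment over all genes tested, called at 0.05. Thbs4, Fmod, Tnmd and Rgs5 were left out, and Gsn, Ly6a and Pdgfra also in the comparison chosen on them. The SE after each ± is the log2 fold change divided by the square root of the quasi-likelihood F statistic, whose spread is moderated across genes. Against all other cells, the SE of DESeq2 were wider for Cd34, Clec3b and Dcn, at 0.67, 0.71 and 0.28 beside 0.40, 0.41 and 0.19. Kept cells were split into members, other cells with Rgs5, other cells with 3 or more Gsn, Ly6a and Pdgfra UMIs, and 116 remaining cells. A gene with 0 UMIs in a class was given the bound that 3 counts over the class allow. No doublets were removed and no caller was run. Named were list genes with 20 or more member UMIs, the 10 highest and 10 lowest folds against all other cells, and the 5 highest and lowest ratios of 13 weeks to 2 days. Other list genes under 20 member UMIs are named where they define a cell type or make up a small count of calls, chosen after their values were seen. Of the 10 lowest, Gucy1a3, Myh4, Gkn3, Hsd11b1, Cd93 and Itga6 gave 0 member UMIs and were at least 6.40, 5.65, 6.59, 5.46, 6.03 and 5.65-fold lower. Chondrocyte, immune, Schwann and adipocyte lists had 1, 3, 0 and 0 genes tested against all other cells, with 1 (Comp) higher and 1 immune gene (S100a8) lower at 6 member UMIs, a call lost without the 2-day pool.

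Tested on simulated data for the comparison with all other cells (3488 genes), the test recovered 53% of 100 genes changed 2-fold and 100% of 100 genes changed 4-fold, with 0.649% false among calls. The simulation set the dispersion to 0.02, a value not estimated from these data, and changed only genes with 100 or more UMIs. The real test admitted genes from 20 UMIs, so these rates do not describe calls on genes with few UMIs. Alternatives were DESeq2 1.42.0, other scalings and filters, no pool block, read counts, cells thinned to 300 UMIs, other rule and gene minimums, and leaving out the deepest cells, cells rich in hemoglobin or muscle genes, and each pool. Leaving out Gm26924, mt-Rnr1 and mt-Rnr2, or the cells with both rule genes and Rgs5, was chosen after seeing the data. Python 3.11.15, pandas 2.3.3 and SciPy 1.17.1 gave levels and intervals.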

Additional observations from a re-analysis of the deposited data

Results flagged for a closer look

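For Col3a1, S100a4 and Bglap2 the pools did not go the same way, and the difference between pools was not tested, with 1 pool per time point. The level of the members over that of all other kept cells was, for Col3a1, the type III collagen gene, 0.7838 in the 2-day pool, 1.387 in the 6-week pool and 0.3262 in the 13-week pool. For S100a4 it was 2.964, 2.2 and 0.3731. For Bglap2, an osteocalcin gene, it was 0.08985, 2.13 and 2.019, where the last value rests on 1 UMI in each group. A single other cell held 111 of the 119 Bglap2 UMIs of the other cells at 2 days, and a single member held 16 of 36 member UMIs at 6 weeks.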

How the results depend on the processing

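Of the called genes that are named for 20 or more member UMIs or for their fold, 64 of 81 against all other cells were tested under all 19 alternatives and 39 of these kept direction and call, as did 21 of 43 tested under all 18 against the Gsn Ly6a Pdgfra cells (51 called) and 35 of 63 under all 19 against the Rgs5 cells (86 called). Without each pool in turn, 55 of 73, 33 of 48 and 42 of 75 genes tested each time kept their call. Mmp13 turned to -0.079 against all other cells and to -0.056 against the Rgs5 cells without the 5% deepest cells (26 cells, 12 of them members), and Serpinh1 to -0.076 against the Rgs5 cells with cells thinned to 300 UMIs. The Mfap5 ratio of 13 weeks to 2 days turned from 2.22 to 0.648 when thinned. The cause was not tested in either case.

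Counts of genes higher and lower depended on the setting. Against all other cells they were 63 and 41 with DESeq2's Wald test, 104 and 107 without the pool block, 89 and 75 with read counts, 80 and 58 when thinned, and 117 lower with a minimum of 50 UMIs, where fewer genes were tested. Leaving out a pool gave 95 to 134 higher and 67 to 146 lower, the lowest without the 6-week pool (95 and 67). Against the Gsn Ly6a Pdgfra cells they were 39 and 23 with DESeq2 and 46 and 24 when thinned, and the count of lower genes was 37 with 50 UMIs, 30 with read counts and 37 with a rule of 2 UMIs. Leaving out a pool gave 51 to 75 higher and 28 to 48 lower, with 51 and 28 without the 2-day pool and 60 and 28 without the 6-week pool. Scaling by total UMIs alone moved the median log2 fold change there from 0.03 to -0.11. Against the Rgs5 cells they were 61 and 55 with DESeq2, 113 and 64 with 50 UMIs, 90 and 62 with read counts and 59 and 41 when thinned. Leaving out a pool gave 58 to 146 higher and 55 to 104 lower, with 58 and 55 without the 13-week pool and 103 and 61 without the 6-week pool.

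The share of members at 2 days was 29.7% with the rule on thinned cells and 47.5% with a rule of 2 UMIs. Over 2-fold changes with time numbered 4 up and 17 down as means over cells, and 12 up with read counts. Levels in the members per 10000 were 32.9 (thinned), 40.0 (rule of 5 UMIs) and 60.6 (reads) for Cpxm2, 27.4 (reads) for Cilp, 23.7 (thinned) and 30.0 (reads) for Ogn, and 202.9 (rule of 5) and 148.1 (reads) for Mgp. Members and reference cells of a pool were paired through the pool block in every test, and the labels give no replicate numbers beyond the pools. Depth limits single cells, at a median of 788 UMIs.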
